A study of Mus musculus with 6 samples.

Results

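The transcripts of 42 genes of fatty acid uptake, activation and beta-oxidation were examined in whole kidneys of iron-deficient (FeD) and control mouse pups. The genes were chosen by symbol for their place in the pathway, and all 42 were found among the 24422 symbols of the count tables. All 42 passed the filter on low counts that left 15145 genes for testing. The 3 FeD kidneys and the 3 control kidneys came from wild type C57BL/6 pups labelled as postnatal day 15, each kidney sequenced as its own library. The dams of FeD pups were fed a synthetic diet low in iron, at 2 to 6 ppm, from before mating and throughout pregnancy. The dams of control pups were fed 220 ppm iron over the same time. The main methods of the study name no diet for the time after birth. The study reports loss of FeD pups before birth, so the FeD kidneys came from pups that survived. The control diet is named as a laboratory chow and the deficient diet as a synthetic one, so iron and other differences between the diets cannot be told apart. Iron and litter cannot be told apart either, since the labels do not name litters. Nothing in the labels gives the sex of single pups or says that pups were fasted or fed before the kidneys were taken. The study describes the samples of a group as separate mice, and the p-values measure the spread between these 6 samples.

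Fatty acids enter tubule cells through carriers such as Cd36, are bound by small binding proteins and are joined to coenzyme A by acyl-CoA synthetases. Long chains pass the inner mitochondrial membrane as carnitine esters and are then shortened by a repeated cycle of dehydrogenation, hydration, dehydrogenation and thiolysis, whose electrons reach the respiratory chain through electron transfer flavoprotein (Etfa and Etfb) and its iron-sulfur dehydrogenase Etfdh. Very long, branched and dicarboxylic chains are shortened in peroxisomes by a parallel set of enzymes. The proximal tubule is known as the segment of the kidney that relies most on this fuel.

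The libraries held 13732173 to 20853293 counts on genes, so that 3 counts, taken as the smallest signal, stood at 0.144 to 0.218 CPM, a floor that covers counting error only. Kidney markers were present throughout, and the summed level of 16 proximal tubule markers was 225674 to 242819 normalized counts in control kidneys and 106195 to 118301 in FeD kidneys, with 12 of the 16 lower, 0 higher and none at 0. A normalized count is a count scaled by library size and TMM factor to the mean library, and where values of 3 kidneys are listed, they stand in the order of kidneys 1 to 3. The summed level of thick ascending limb markers overlapped between groups, at 113435 to 120339 in control and 85170 to 140961 in FeD kidneys. Podocyte sums (13355 to 14418 against 10848 to 15284) and leukocyte sums (2207 to 2426 against 2037 to 2359) overlapped too. Some other segments and cell types differed without overlap. The summed level of 4 distal convoluted tubule markers was 31798 to 43422 in control and 13828 to 17183 in FeD kidneys, with 3 lower and 0 higher. That of 8 collecting duct markers was 23469.9 to 33109 in control and 33633 to 54699 in FeD kidneys, with 4 higher and 3 lower. The sums of 6 endothelial markers (13341 to 13894 against 9161 to 12659.7, with 4 lower and 1 higher) and 6 interstitial markers (44482 to 47329.6 against 30200.0 to 41324, with 2 lower and 3 higher) were below those of control kidneys. Transcripts of 6 adrenal cortex genes summed to 13878 normalized counts in FeD kidney 2 and 1283 in control kidney 1, against 139.8 to 224 in the other 4 kidneys, and Cyp11b2 was at 0 in every kidney but FeD kidney 2. The summed level of 8 adipocyte genes was 3917 to 4104 in control and 937 to 1151 in FeD kidneys, with 6 of the 8 lower, 0 higher and Lep at 0 in FeD kidney 2. Among them the brown fat gene Ucp1 had 628 to 1004 against 19.0 to 259. Xist, the transcript of the inactive X chromosome, was high in control kidneys 1 and 2 and FeD kidney 3, whereas the other 3 kidneys carried Y-linked transcripts, so the sexes were not balanced between groups. Brown fat and adrenal cortex also express many of the 42 genes, and the part of these tissues, of sex and of the segments and cell types in the values given here was not tested. In whole kidneys, fewer cells of a type and less RNA per cell cannot be told apart.

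One stretch of sequence is shared by a pair of the genes. Hadha and Hadhb, which encode the subunits of the mitochondrial trifunctional protein, start back to back on chromosome 5 on opposite strands, with 85 bases between their annotated ends, the only such pair among the 42 genes within 1000 bases. This stretch is shown because both genes fell together in FeD kidneys, with log2 fold changes of -0.48 and -0.51. It lies at chr5:30481703-30481787 of the mouse genome build mm9 and reads, on the plus strand from the side of Hadha to that of Hadhb, with 69.4% G or C:
Hadha-Hadhb: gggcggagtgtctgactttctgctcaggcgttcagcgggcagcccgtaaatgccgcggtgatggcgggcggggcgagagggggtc

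Promoters of RefSeq (GRCm38.p6, 250 bases before to 50 after each start) were available for 38 of the 42 genes and were searched for 3 motifs on both strands. The direct repeat of AGGTCA with 1 base between, an element of PPAR with RXR, was in 0 of the 38 and in 0.0481% of 27025 genes with a promoter, and TCAAGGTCA, an element of ERR receptors, was in 0 of the 38 and in 0.466% of all. The half-site AGGTCA, which is part of both and was added after the first motifs gave no match, was in 9 of the 38 and in 18.1% of all. It was found in 1 of 9 genes that rose, 4 of 16 that fell and 4 of 13 that did not pass the test. A match is a description of these letters and not of a bound site. The stretches around it are shown for a gene that rose, a gene that fell and a gene that did not pass, on the strand of the gene. Capitals mark the half-site, here in its reverse complement TGACCT. Each matched mm9 once on its chromosome, at chr5:17341913-17341964 (minus strand), chr7:126761195-126761248 (plus strand) and chr3:153607827-153607857 (minus strand). The half-site began 228, 107 and 249 bases before the start of that promoter, and a gene can have several starts in the set. For Cd36 and Acsm1 the stretch lies inside the annotated gene (17287508 to 17394777 and 126750540 to 126806029), so an internal start is meant.
Cd36: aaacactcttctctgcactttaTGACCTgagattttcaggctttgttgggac
Acsm1: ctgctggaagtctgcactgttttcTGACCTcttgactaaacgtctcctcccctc
Acadm: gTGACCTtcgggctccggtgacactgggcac

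In FeD kidneys 18 of the 42 genes were lower and 9 were higher at an adjusted P under 0.05 by edgeR's quasi-likelihood test, and 15 did not pass. Of all tested genes, 23.3% were lower and 22.4% higher by the same rule, 45.7% in all. The share of higher genes among the 42 (21.4%) was near that background and the share of lower genes (42.9%) was above it. With a change of at least 2-fold in addition, 2 genes rose (Ehhadh and Acsl4) and 4 fell (Acsm1, Bdh1, Acsm3 and Acox2), which is 4.76% and 9.52% of the 42 beside 4.34% and 5.69% of all tested genes. The median log2 fold change was -0.17 over the 42 genes and -0.00177 over all tested genes. The 3 FeD and 3 control values did not overlap in 35 of the 42 genes (83.3%), beside 58.1% of all tested genes. This background was not matched for level or spread. Among control kidneys the median coefficient of variation was 4.56% over the 42 genes and 5.98% over all tested genes. Of the 18 falls, 8 lay in the mitochondrial cycle and its electron transfer, none of them 2-fold. The 9 rises were those of Cd36, 3 long-chain synthetases (Acsl1, Acsl3 and Acsl4), Crot, Acadl, Eci2, Ehhadh and Acot2. The proximal tubule, distal convoluted tubule and adipocyte sums given above were lower and the collecting duct sum higher in the same FeD kidneys, and their part in these changes was not tested. As a sum, the 42 genes held 0.854%, 0.906% and 0.889% of counts in control kidneys and 0.831%, 0.895% and 0.755% in FeD kidneys, and the groups overlapped.

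**Figure D1:**
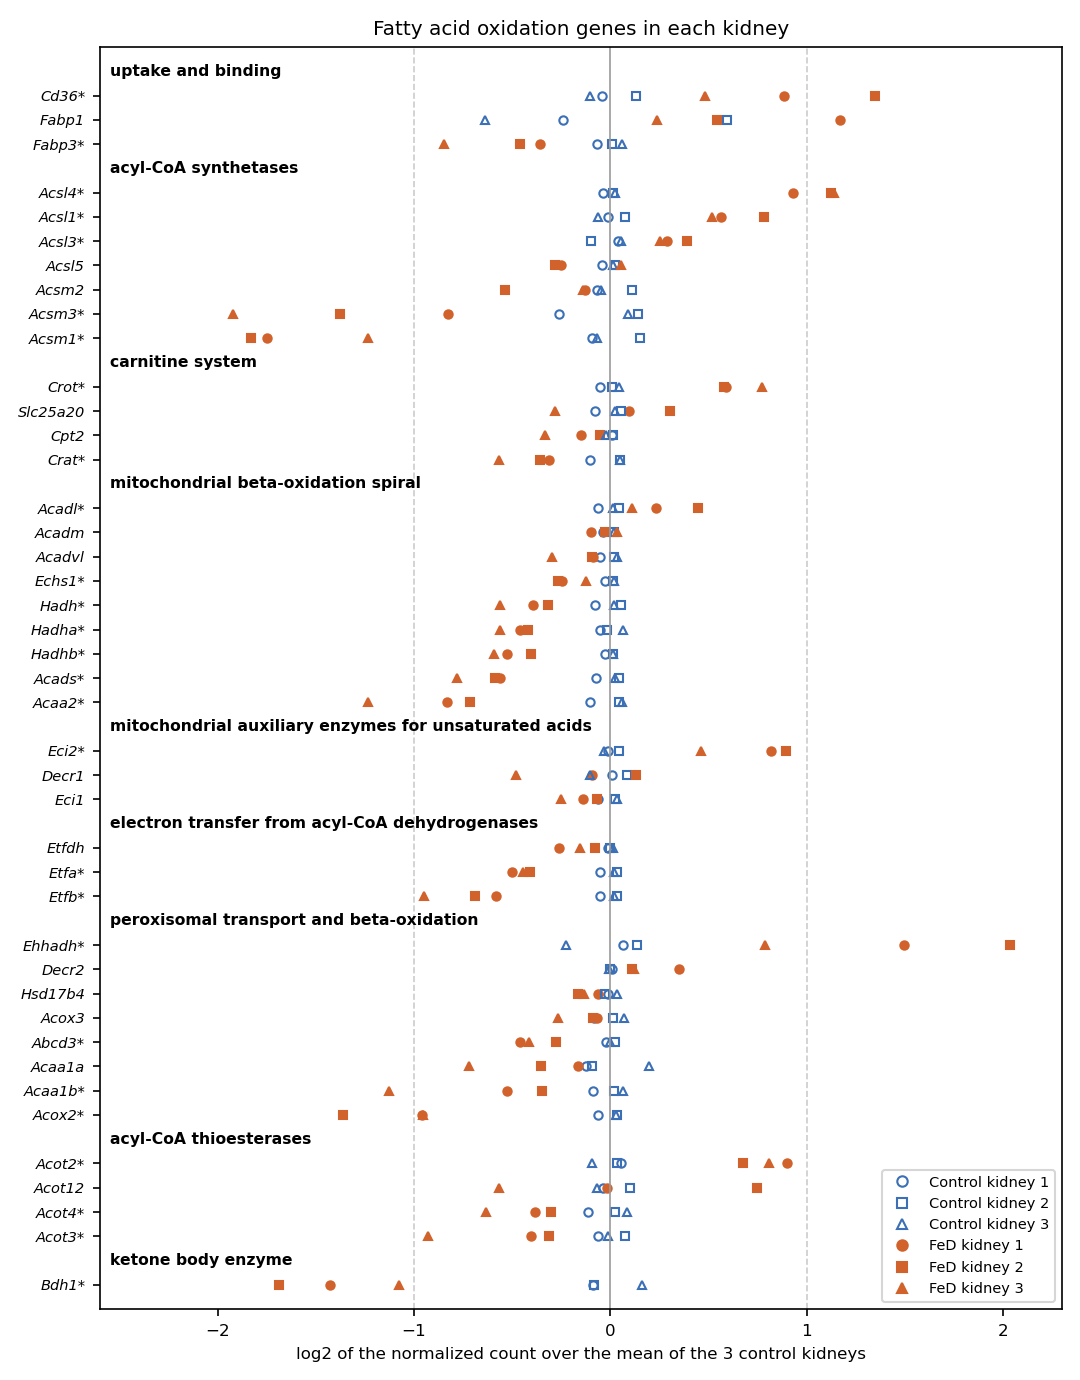
Each row is a gene, grouped by role, and each point a kidney, placed at the log2 of its normalized count over the mean of the 3 control kidneys (open blue, control; filled orange, FeD; shapes mark kidney numbers); an asterisk marks an adjusted P under 0.05 in edgeR's test and dashed lines mark 2-fold. The mitochondrial cycle sits mostly left of 0, Ehhadh and Cd36 spread widely to the right, and FeD kidney 3 is the lowest FeD kidney in 27 of 42 genes.

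Of the genes of uptake and binding, the membrane fatty acid carrier Cd36 rose and the binding protein Fabp3 fell. Cd36 (chromosome 5, 17287508 to 17394777) had 1261, 1421 and 1209 normalized counts in control and 2393, 3304 and 1810.2 in FeD kidneys. All FeD kidneys were above all control kidneys, but they differed among themselves, with FeD kidney 2 highest and FeD kidney 3 lowest (edgeR, log2 fold change 0.95, SE 0.19, adjusted P = 0.0047). The log2 fold change of Cd36 was 0.68 with FeD kidney 2 and control kidney 1 left out together and passed 1 when FeD kidney 3 or control kidney 2 was left out. Fabp3 fell from 1836 ± 82.3 to 1262 ± 215 normalized counts (mean ± SD, n = 3, as for all values given so; edgeR, log2 fold change -0.54, adjusted P = 0.0064); 19.6% of its exon bases overlap genes on the opposite strand. Fabp1, the liver-type binding protein, stood at 12.5 ± 5.65 and 20.3 ± 6.91 and did not pass (adjusted P = 0.19, edgeR).

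Among the acyl-CoA synthetases, 3 of 4 long-chain forms rose and 2 of 3 medium-chain forms fell. Acsl1, the main form of oxidative tissues, had 9729, 10309 and 9372 normalized counts in control and 14499.9, 16842 and 14038 in FeD kidneys, and the groups did not overlap (edgeR, log2 fold change 0.63, SE 0.09, adjusted P = 0.001). Acsl4 (chromosome X, 138752536 to 138825078), which prefers arachidonic acid, had 1350.4, 1399 and 1407 normalized counts in control and 2645, 3016 and 3051 in FeD kidneys. The FeD kidneys lay close together at roughly 2-fold the control level, with the smallest standard error of the 6 changes that reached 2-fold (edgeR, log2 fold change 1.07, SE 0.07, adjusted P = 3.5e-05). Acsl3, a form found on lipid droplets and endoplasmic reticulum, rose by less (edgeR, log2 fold change 0.31, adjusted P = 0.015). Its call was lost when control kidney 2 was left out (adjusted P = 0.074, edgeR). The call was also lost with FeD kidney 2 and control kidney 1 left out together. Acsl5 did not pass (edgeR, log2 fold change -0.15, adjusted P = 0.21). FeD kidney 3 lay above every control kidney and the other FeD kidneys below, and without FeD kidney 3 the gene passed at a log2 fold change of -0.25.

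The medium-chain synthetases Acsm1, Acsm2 and Acsm3 lie in a row on chromosome 7, from 126697983 to 126931027. Acsm1 had 2255, 2671 and 2301 normalized counts in control and 717, 678 and 1023 in FeD kidneys, a clear separation of the groups (edgeR, log2 fold change -1.57, SE 0.15, adjusted P = 0.00016) and the largest fall of the 42 genes. Its neighbour Acsm2, the most abundant of the 3 by normalized count, had 9630.3, 10907 and 9763 normalized counts in control and 9237, 6967 and 9167 in FeD kidneys. FeD kidney 2 was lowest and the other FeD kidneys lay just below the control kidneys, and the gene did not pass (edgeR, log2 fold change -0.26, adjusted P = 0.11). Acsm3 had 87.3, 115 and 111 normalized counts in control and 59.0, 40.3 and 27.6 in FeD kidneys, a low level in both groups without overlap (edgeR, log2 fold change -1.31, SE 0.28, adjusted P = 0.0062). The exons of Acsm3 overlap those of Eri2 on the opposite strand over 39.7% of their bases, so reads of Eri2 can be among its counts. With a term for Xist or Y-linked reads the log2 fold changes of Acsm1 and Acsm3 were -1.49 and -1.48.

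The carnitine system moved in both directions. Crot, the carnitine octanoyltransferase of peroxisomes, rose from 1783 ± 62.5 to 2799 ± 216 normalized counts (edgeR, log2 fold change 0.65, SE 0.07, adjusted P = 0.00026), and Crat, the carnitine acetyltransferase, fell from 2741 ± 164 to 2064 ± 190.0 (edgeR, log2 fold change -0.41, SE 0.08, adjusted P = 0.0044). Cpt2, which releases acyl-CoA inside the inner membrane, had 2535, 2547 and 2485 normalized counts in control and 2272, 2433 and 2001 in FeD kidneys. All FeD values were below all control values, but the difference was small and did not pass (edgeR, log2 fold change -0.18, adjusted P = 0.091). The carrier Slc25a20, which swaps acylcarnitine for carnitine, had 1447 ± 69.5 and 1508 ± 299 and did not pass (edgeR, log2 fold change 0.06, adjusted P = 0.75). The sign of its log2 fold change turned to -0.06 when FeD kidney 2 was left out.

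Of the 9 enzymes of the mitochondrial cycle, 6 fell, 1 rose and 2 did not pass, and the median was -0.42 on the log2 scale. Acaa2, the thiolase that cuts medium-length chains, had 9694, 10739.6 and 10849 normalized counts in control and 5865, 6352 and 4432 in FeD kidneys. Every FeD kidney was below every control kidney, FeD kidney 3 furthest (edgeR, log2 fold change -0.91, SE 0.13, adjusted P = 0.00096), and with a term for Xist or Y-linked reads the fall reached 2-fold (-1.02). Hadha, which carries the hydratase and dehydrogenase of long chains, had 7535, 7744 and 8196 normalized counts in control and 5683, 5861 and 5301 in FeD kidneys, and the groups did not overlap (edgeR, log2 fold change -0.48, SE 0.07, adjusted P = 0.0012). Hadhb, its partner with the long-chain thiolase, fell from 7267 ± 123 to 5120.0 ± 342 normalized counts (edgeR, log2 fold change -0.51, adjusted P = 0.00092), close to the change of Hadha, with which it shares the stretch of sequence shown above. Hadh, the dehydrogenase of short chains, had 7397, 8096 and 7909.7 normalized counts in control and 5932, 6258 and 5283 in FeD kidneys, again without overlap (edgeR, log2 fold change -0.42, SE 0.08, adjusted P = 0.0042). Echs1, the short-chain hydratase, fell by 0.21 on the log2 scale (adjusted P = 0.03, edgeR), a call lost in 8 of 14 alternatives. These include leaving out control kidney 1, 2 or 3 or FeD kidney 1 or 2.

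The 4 acyl-CoA dehydrogenases, which open the cycle and differ in the chain length they take, did not move together. Acads, for short chains, fell from 2597 ± 114 to 1667 ± 134 normalized counts (edgeR, log2 fold change -0.64, SE 0.07, adjusted P = 0.00035). Acadm, for medium chains, had 9394, 9763 and 9768 normalized counts in control and 8994, 9448 and 9877 in FeD kidneys. The groups overlapped and the gene did not pass (edgeR, log2 fold change -0.03, SE 0.07, adjusted P = 0.75). Acadl, for long chains, had 5839, 6283 and 6163 normalized counts in control and 7174, 8304 and 6589 in FeD kidneys. FeD kidneys were all above control kidneys and the rise was small (edgeR, log2 fold change 0.27, SE 0.09, adjusted P = 0.044). The call of Acadl rested on single kidneys and settings: it was lost in 9 of 14 alternatives, among them leaving out any control kidney or FeD kidney 1 or 2, with adjusted P values from 0.0048 to 0.27. Acadvl, for very long chains, had 7981, 8385 and 8490.1 normalized counts in control and 7783, 7757 and 6750.2 in FeD kidneys. The FeD kidneys lay below the control kidneys by less than the test resolves (edgeR, log2 fold change -0.16, adjusted P = 0.14), and 42.9% of the exon bases of Acadvl overlap Dvl2 on the opposite strand.

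The electron transfer genes fell on the flavoprotein side. Etfa fell from 5986 ± 194 to 4379 ± 143 normalized counts (edgeR, log2 fold change -0.45, SE 0.06, adjusted P = 0.00093) and Etfb from 5808 ± 181 to 3496 ± 446 (edgeR, log2 fold change -0.73, SE 0.10, adjusted P = 0.00065). Etfdh, the iron-sulfur protein that passes the electrons to ubiquinone, had 2986, 3009 and 3038 normalized counts in control and 2509, 2855 and 2703 in FeD kidneys. Its FeD values were all below its control values, yet the difference was small beside the others and did not pass (edgeR, log2 fold change -0.16, SE 0.06, adjusted P = 0.065). Over the alternatives its adjusted P ranged from 0.052 to 0.21. A difference between Etfdh and the flavoprotein genes was not tested. Of the enzymes that make unsaturated chains fit the cycle, the isomerase Eci2, which is also found in peroxisomes, rose from 2195 ± 57.7 to 3654 ± 559 (edgeR, log2 fold change 0.73, SE 0.11, adjusted P = 0.001). Its mitochondrial relative Eci1 (edgeR, log2 fold change -0.15, adjusted P = 0.092) and the reductase Decr1 (edgeR, log2 fold change -0.13, adjusted P = 0.49) did not pass.

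The peroxisomal genes held both the largest rise and a 2-fold fall. Ehhadh (chromosome 16, 21761360 to 21787917), the bifunctional hydratase and dehydrogenase of the pathway for dicarboxylic and long straight chains, had 4527, 4760.5 and 3711 normalized counts in control and 12198, 17762 and 7492 in FeD kidneys. All FeD kidneys exceeded all control kidneys, but they were far apart, with FeD kidney 2 more than 2-fold above FeD kidney 3 (edgeR, log2 fold change 1.53, SE 0.27, adjusted P = 0.0026). The log2 fold change of Ehhadh was 1.22 without FeD kidney 2 and control kidney 1. Acox2 (chromosome 14, 9058025 to 9091867), the oxidase for branched chains and bile acid precursors, had 1502, 1607 and 1604 normalized counts in control and 807, 611 and 810.1 in FeD kidneys, and the groups were well apart (edgeR, log2 fold change -1.08, SE 0.11, adjusted P = 0.0002). Without FeD kidney 2 its log2 fold change was -0.94, just under 2-fold, and its adjusted P stayed under 0.05. Abcd3, a transporter of acyl-CoA into peroxisomes, had 7207, 7432 and 7294 normalized counts in control and 5317, 6029 and 5478 in FeD kidneys, a smaller fall without overlap (edgeR, log2 fold change -0.38, SE 0.07, adjusted P = 0.0033).

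Acox3, an oxidase of branched chains, had 1536, 1644 and 1708 normalized counts in control and 1554, 1534 and 1354 in FeD kidneys. Control and FeD kidneys overlapped, and it did not pass (edgeR, log2 fold change -0.14, adjusted P = 0.16); 6.77% of its exon bases overlap a gene on the opposite strand. Hsd17b4, the bifunctional protein that follows the branched-chain oxidases, was at 4439.7 ± 99.6 and 4088 ± 151 and did not pass either (edgeR, log2 fold change -0.12, adjusted P = 0.15). The thiolase Acaa1b fell from 4544 ± 247 to 2934 ± 770.2 (edgeR, log2 fold change -0.63, adjusted P = 0.018), a call lost without control kidney 2 or 3, and its near copy Acaa1a missed the threshold (edgeR, log2 fold change -0.40, adjusted P = 0.051). Of the 100-base windows of their transcripts, 30.5% of Acaa1b and 19.7% of Acaa1a recur in other protein-coding genes, among them each other, so uniquely mapped reads miss part of both. Decr2, the peroxisomal reductase, did not pass (edgeR, log2 fold change 0.20, adjusted P = 0.063).

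The acyl-CoA thioesterases, which free fatty acids from coenzyme A, lie in a cluster on chromosome 12 apart from Acot12. Within it Acot2, of mitochondria, rose from 535 ± 29.2 to 931 ± 72.3 normalized counts (edgeR, log2 fold change 0.80, SE 0.09, adjusted P = 0.0003). The peroxisomal forms Acot3 and Acot4 fell, with log2 fold changes of -0.53 (adjusted P = 0.021) and -0.44 (adjusted P = 0.011, edgeR). The call of Acot3 was lost without control kidney 2 or 3. Neighbours of 1 cluster, Acot2 from 85328811 and Acot3 to 85400515, thus moved in opposite directions. Acot2 shares 17.1% of its 100-base windows with other genes, among them the cytosolic Acot1, and 24.5% of the exon bases of Acot4 overlap a gene on the opposite strand. Acot12, a cytosolic acetyl-CoA hydrolase, ranged from 339 to 844 in FeD kidneys, both below and above the control range of 479 to 539. It did not pass (edgeR, log2 fold change 0.15, adjusted P = 0.7), and without FeD kidney 2 its log2 fold change was -0.25.

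Bdh1 (chromosome 16, 31422366 to 31458987), the mitochondrial enzyme that interconverts the ketone bodies acetoacetate and 3-hydroxybutyrate, had 2482, 2490.4 and 2951 normalized counts in control and 980.3, 821 and 1252 in FeD kidneys. The groups were far apart (edgeR, log2 fold change -1.37, SE 0.15, adjusted P = 0.00025), and the log2 fold change stayed between -1.54 and -1.22 as each kidney was left out.

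**Figure D2:**
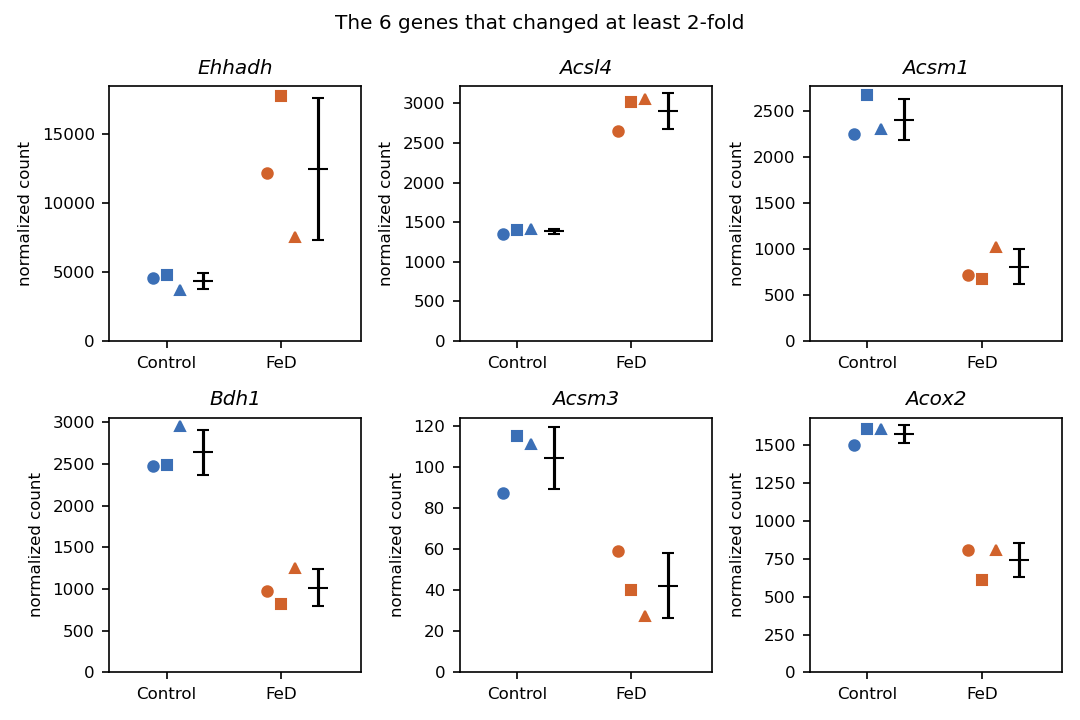
Normalized counts (vertical axis, from 0) of the 6 genes that changed at least 2-fold at an adjusted P under 0.05, in control (blue) and FeD (orange) kidneys; circles, squares and triangles are kidneys 1, 2 and 3, and the black marks are the mean ± SD of 3 kidneys. Ehhadh has the widest spread among FeD kidneys and Acsl4 the tightest separation.

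Levels per length, as counts per kilobase of exon scaled to the library total (RPKM), were compared between genes. The length was that of all annotated exons of a gene merged, such as 1139 bases in Etfb, 1515 in Acaa2 and 6595 in Hadhb. The transcripts present in these kidneys can be shorter, so the order, ranks and shares between genes also depend on the annotation. In control kidneys the order began with Acaa2 at 385 ± 23.5 (SD, n = 3) and Etfb at 285 ± 8.91, which lay apart from each other and from the rest, followed by Acadm at 184 ± 4.09, Etfa at 182 ± 5.92, Acadvl at 172 ± 5.60 and Acadl at 170.0 ± 6.41. Acadm and Etfa lay within 1 SD of each other, and so did Acadvl and Acadl. In FeD kidneys the highest mean was that of Ehhadh at 231 ± 95.3, up from rank 14, but its spread covered Acadl at 205 ± 24.3, Acaa2 at 205 ± 36.8, Acadm at 180.0 ± 8.43 and Etfb at 172 ± 21.9. Acsl1 moved from rank 20 to 9 and Acsm1 from rank 17 to 33. Fabp1 and Acsm3 had the lowest levels in both groups. Of the summed level per length of the 42 genes, the 9 enzymes of the mitochondrial cycle made up 39.4% in control and 36.0% in FeD kidneys. The 3 electron transfer genes made up 15.5% and 11.8%, and the 8 peroxisomal genes 15.7% and 20.1%. Ehhadh, with its wide spread, is among these 8 genes, and its RPKM went from 80.3 ± 10.2 to 231 ± 95.3. Of the 8 genes, 6 had a log2 fold change below 0 and 2 above, so the larger share is not a rise of the group.

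**Figure D3:**
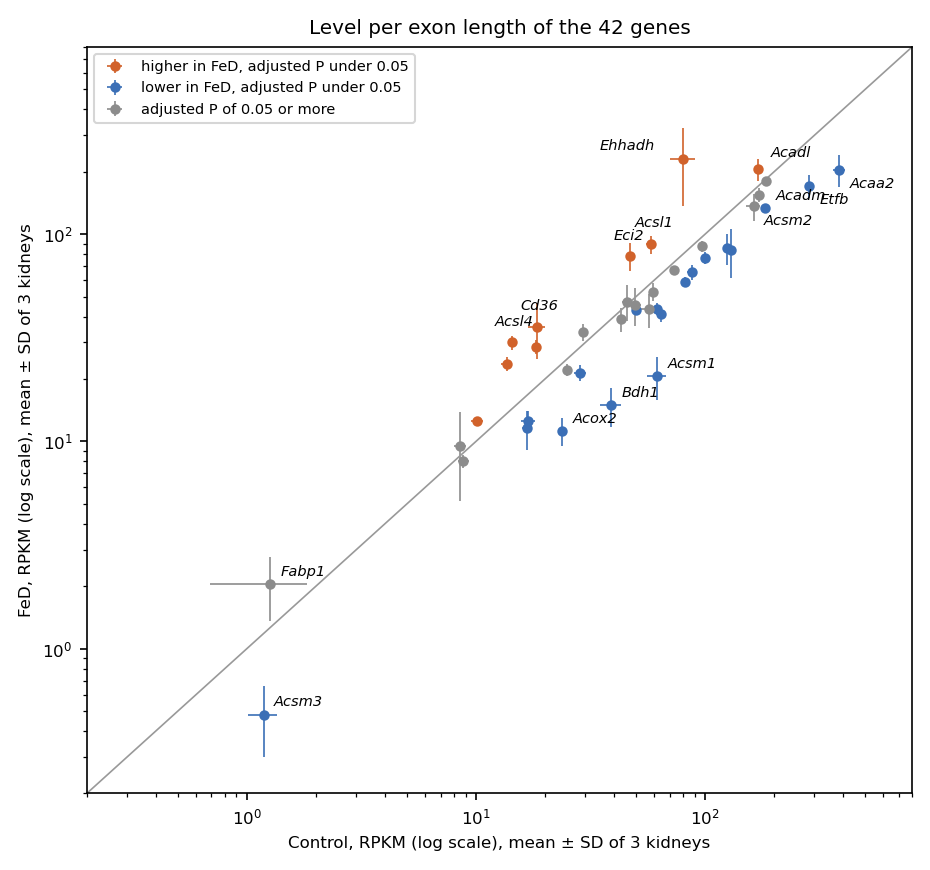
Level per exon length (RPKM, log scales) of the 42 genes in control kidneys (horizontal) against FeD kidneys (vertical), as mean ± SD of 3 kidneys; colours mark the result of edgeR's test and the line marks equal levels. Ehhadh, Acsl4 and Cd36 lie above the line, Acsm1, Bdh1 and Acox2 lie below it, and Acadm lies on it.

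The kidneys of a group differed more under FeD. The median coefficient of variation of the 42 genes was 4.56% among control kidneys and 10.8% among FeD kidneys, beside 5.98% and 11.03% over all tested genes. FeD kidney 3 was the lowest of the FeD kidneys in 27 of the 42 genes (64.3%; 39.2% of all tested genes), and FeD kidney 2 was the highest in 21 (50.0%; 32.7% of all). The median log2 difference of the 42 genes from the control mean was -0.15, -0.21 and -0.31 in FeD kidneys 1 to 3. FeD kidney 2 is the kidney with most adrenal cortex transcripts and FeD kidney 3 the FeD kidney with Xist. With FeD kidney 2 and control kidney 1 left out together, 24 of the 27 calls at an adjusted P under 0.05 and 5 of the 6 at least 2-fold were kept, the 2-fold call of Acox2 being lost; with a term for Xist or Y-linked reads, 25 and 6 were kept. Both alternatives were chosen after the data were seen.

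Other genes of the pathway were counted by lists of symbols. Of 21 tested genes of mitochondrial oxidation and ketone bodies, 16 were lower and 3 higher at an adjusted P under 0.05, beside the 23.3% and 22.4% of all tested genes. Over the list the median was -0.47 on the log2 scale. Oxct1 activates ketone bodies for use, and Pcca is a subunit of propionyl-CoA carboxylase. Oxct1 fell from 13992 ± 609 to 3898 ± 1391 normalized counts (edgeR, log2 fold change -1.84, adjusted P = 0.0004) and Pcca from 2871 ± 79.8 to 1149 ± 307 (edgeR, log2 fold change -1.32, adjusted P = 0.00045). Acot1, named after its values were seen because it lies next to Acot2, rose as well (edgeR, log2 fold change 1.31, adjusted P = 3.1e-05).

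Of 18 tested genes of uptake, activation and carnitine, 4 were higher (22.2%) and 5 lower (27.8%). Both shares were near those of all tested genes (22.4% and 23.3%). Cpt1a, which makes the carnitine ester at the outer membrane, had 6483, 6818 and 6627 normalized counts in control and 9761, 9596 and 8731 in FeD kidneys, a rise without overlap (edgeR, log2 fold change 0.50, SE 0.07, adjusted P = 0.001). The inner enzyme Cpt2 did not pass, and the difference between them was not tested. Of 19 tested genes of peroxisomal oxidation, 2 were higher (10.5%) and 6 lower (31.6%), beside the same 22.4% and 23.3%. Pecr, a peroxisomal enoyl-CoA reductase, fell from 1336 ± 38.2 to 559.5 ± 98.8 (edgeR, log2 fold change -1.26, adjusted P = 0.00017). Of 16 peroxins, which assemble peroxisomes, 2 were higher (12.5%), 3 lower (18.8%) and 11 did not pass. Both shares were below those of all tested genes, and no peroxin changed 2-fold.

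Of 14 regulators, 3 were higher (21.4%) and 5 lower (35.7%), beside 22.4% and 23.3% of all tested genes. Ppara, the receptor best known for driving these genes, had 1849, 1918 and 1738 normalized counts in control and 3017, 2527 and 2325 in FeD kidneys, a rise without overlap (edgeR, log2 fold change 0.52, SE 0.10, adjusted P = 0.0034). Its coactivator Ppargc1a had 2856, 2763 and 2963 normalized counts in control and 3640.2, 3535 and 3369.9 in FeD kidneys (edgeR, log2 fold change 0.30, adjusted P = 0.0049). Esrra, a nuclear receptor of mitochondrial energy genes, fell from 2397 ± 255 to 1094 ± 148 normalized counts (edgeR, log2 fold change -1.13, SE 0.11, adjusted P = 0.00017). Rxrg was scarce, at 20.7 ± 5.24 and 7.30 ± 4.61 (edgeR, log2 fold change -1.51, adjusted P = 0.037), and its call was lost in 7 of 13 alternatives that tested it. The levels of regulators are given beside the 42 genes as values; a link between them was not tested.

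**Figure D4:**
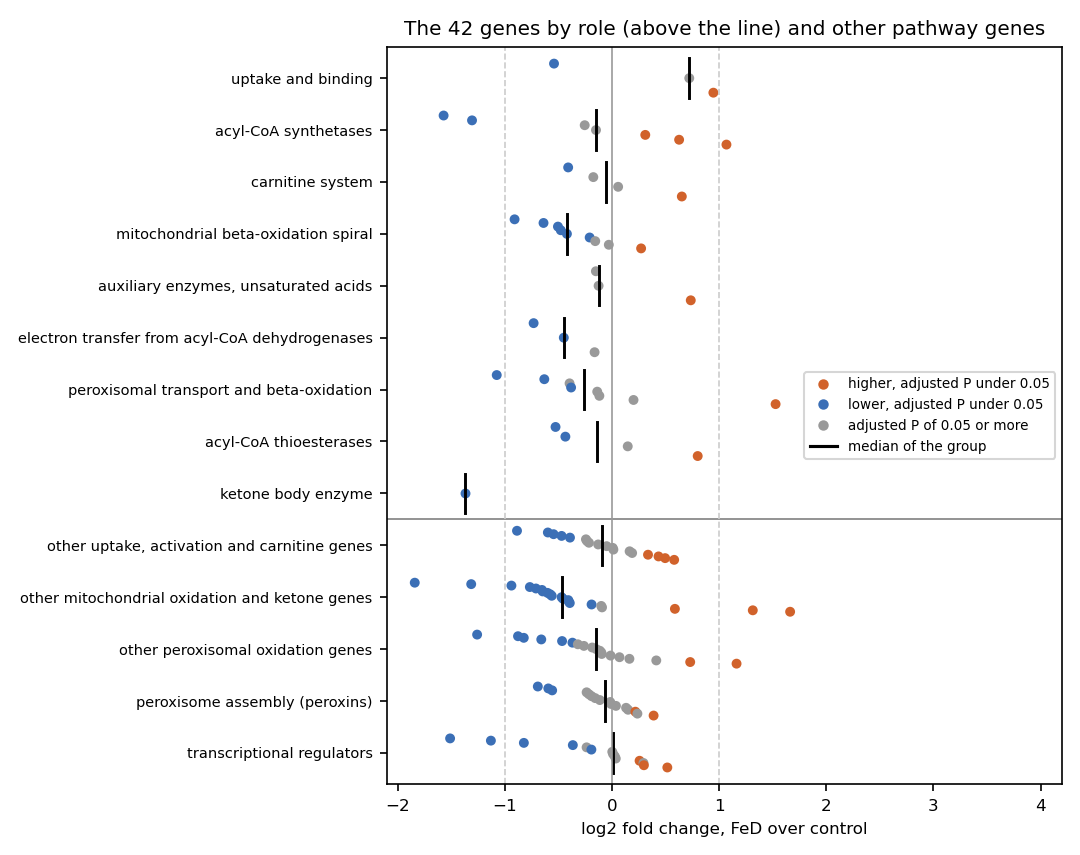
Each point is a gene at its log2 fold change, FeD over control (horizontal axis), in 9 groups of the 42 genes by role and, under the line, 5 lists of other pathway genes; colours mark edgeR's test and black bars the median of each group. The medians of the mitochondrial cycle (-0.42), the electron transfer genes (-0.45) and the other mitochondrial genes (-0.47) lie left of 0, and peroxins lie near 0 (-0.07).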

How the data were processed

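The authors sequenced poly-A RNA (TruSeq) of whole kidneys, trimmed the reads with Trimmomatic after base calling with CASAVA 1.8.2, aligned them to mm9 with TopHat2 2.0.11 and counted uniquely aligned reads per gene with HTSeq. The deposited values were raw counts per gene symbol in 2 tables, 1 a group, with 3 kidneys each. The annotation, the strand setting and the counting mode are not given in the sources used here, so reads of overlapping genes cannot be told apart. The authors' own study used DESeq2.

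Here edgeR 4.0.16 (R 4.3.3) was run on the counts of all genes, with filterByExpr, TMM and the quasi-likelihood test, FeD against control, and Benjamini-Hochberg adjustment over the 15145 genes tested. A call was an adjusted P under 0.05, also with a change of at least 2-fold. The standard error was the log2 fold change over the square root of F. Normalized counts were scaled to the mean library of 17882542.5 counts. RPKM used the length of all annotated exons of a gene merged, from GENCODE M1 on mm9. The fit was tested on simulated data with 200 changed genes. Alternatives were other size factors, other filters, DESeq2 1.42.0, a block for the replicate number, each kidney left out and 2 settings added after the data were seen. The 42 genes and all lists were chosen with earlier results of these data known. Values in every kidney are given for genes called at 2-fold, the 10 members with the highest mean count and a few genes named by symbol (Etfdh, Cpt2, Acadl, Acadm, Acox3, Cd36 and Acsm3, and regulators and rate-setting enzymes outside the 42). Every column was mapped to a sample, and no 2 libraries of a group were alike within sampling noise. Some genes of the wider pathway lists are not reported by name here.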

Additional observations from a re-analysis of the deposited data

How the results depend on the processing

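Over 12 alternatives listed at the start and 2 added after seeing the data, every count kept within 1.5 times its value, and the median log2 fold change of the 42 genes stayed negative. As each kidney was left out, the median ranged from -0.20 to -0.17, the genes lower at an adjusted P under 0.05 from 15 to 19, the genes higher from 7 to 11, the 2-fold lower genes from 3 to 4 and the 2-fold higher genes from 2 to 3. Among the other pathway genes these ranges were 30 to 36, 11 to 17, 4 to 5 and a constant 3. The sign turned in 4 genes that had not passed the test. As each kidney was left out, Slc25a20 ranged from -0.061 to 0.21, Acot12 from -0.25 to 0.42, Acadm from -0.053 to 0.020 and Decr1 from -0.25 to 0.034. With a term for Xist or Y-linked reads Slc25a20 was at -0.043 and Acot12 at -0.050, and without FeD kidney 2 and control kidney 1 they were at -0.11 and -0.28. The cause was not tested. DESeq2 kept all 27 calls and added Acaa1a. Same-numbered kidneys did not deviate together (correlations -0.159, 0.0029 and -0.036). With 3 kidneys a group these correlations cannot show whether the numbers mark a pairing. With the replicate number as a block, 25 of the 27 calls were kept, Acadl and Echs1 being lost, and all 6 at 2-fold. With at least 10 counts required in every kidney, Fabp1 was not tested. With 3 kidneys a group the exact permutation test cannot give a p under 0.1, and depth limits the scarce transcripts Fabp1, Acsm3 and Rxrg.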

Other observations

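Genes that carry branched-chain and odd-chain acyl groups out of amino acid breakdown were named after their values were seen, from the list of other mitochondrial genes. Ivd, the isovaleryl-CoA dehydrogenase of leucine breakdown, fell from 3473 ± 59.0 to 1810.0 ± 118 normalized counts (SD, n = 3; edgeR, log2 fold change -0.94, SE 0.06, adjusted P = 4.0e-05). Acad8, of valine breakdown, fell as well (edgeR, log2 fold change -0.46, adjusted P = 0.00056), and so did Acadsb, of isoleucine breakdown (edgeR, log2 fold change -0.40, adjusted P = 0.017), the latter with a call lost in 5 of 14 alternatives. The propionyl-CoA route fell at each listed step. Pccb, the partner of Pcca in propionyl-CoA carboxylase, fell from 6461 ± 158 to 4866 ± 133 (edgeR, log2 fold change -0.41, adjusted P = 0.0013), Mcee from 1035 ± 23.8 to 700.1 ± 31.0 (edgeR, log2 fold change -0.56, adjusted P = 0.00052) and Mut from 3049 ± 30.5 to 2199 ± 213 (edgeR, log2 fold change -0.47, adjusted P = 0.0017).

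Acat1, the acetoacetyl-CoA thiolase, fell from 8724 ± 295 to 5123 ± 269 normalized counts (edgeR, log2 fold change -0.77, adjusted P = 0.00014). Of the peroxisomal genes outside the 42, the heme enzyme catalase, Cat, fell from 8342 ± 369.6 to 4712 ± 536 (edgeR, log2 fold change -0.82, SE 0.09, adjusted P = 0.00034), and the racemase Amacr, which prepares branched chains for Acox2, fell from 1186 ± 88.4 to 749 ± 39.1 (edgeR, log2 fold change -0.66, adjusted P = 0.00048). Control and FeD kidneys did not overlap in any gene named in these paragraphs. The groups did not overlap in 58.1% of all tested genes and in 95.2% of the list of other mitochondrial genes. Every gene named here was already called lower, so the lack of overlap is not a separate result. Proximal tubule markers were lower in the same kidneys, and their part in these values was not tested.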
